A study of Mus musculus with 2 samples.

Results

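The regions described here are 520 accessible sites that were found in both genotypes of colonic macrophages but had a much lower peak in macrophages lacking Tle4. They were chosen from ATAC-seq peak lists, in which a peak marks DNA that the transposase Tn5 could reach, and the summit pileup gives the height of the peak at its highest point. A Tle4cKO and a WT peak were paired when each was the highest peak of the other list that it overlapped. Members are pairs on chromosomes 1 to 19 with a summed pileup of 40 or more and a raw Tle4cKO/WT pileup ratio of 0.4 or less. They make up 520 of 67113 such pairs (0.775%), drawn from 92335 pairs in all. Every member therefore passed the filter on low values. Because the ratio chose the members, their lower pileup in Tle4cKO is a description and was not tested.

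The Tle4cKO library came from male C57BL/6 mice of genotype Tle4f/f Lyz2-Cre, and the WT library from male C57BL/6 mice that carry Lyz2-Cre alone, so both genotypes express the Cre recombinase from the Lyz2 locus, which is active in myeloid cells. All mice were 18.9 weeks old. Cells were sorted from the colon as negative for Siglec-F, low for Ly6C and positive for CD64, and the cells of 2 mice per genotype were pooled. There was thus 1 library per genotype, and no value below has a replicate check. In a pooled sample, fewer cells with an open site and a less open site in each cell cannot be told apart.

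Tle4 encodes a corepressor of the Groucho family. Groucho proteins do not bind DNA themselves but are brought to it by transcription factors of the HES, RUNX and TCF/LEF families, where they help to close chromatin. Resident macrophages of the colon are kept replenished from blood monocytes, and they take up debris and bacteria without strong inflammation.

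The Tle4cKO list held 128129 peaks with a median pileup of 20, and the WT list held 128737 peaks with a median pileup of 28. Across all pairs the median Tle4cKO/WT ratio was 0.741, and it was 0.731 over the 67113 pairs. Whether the pileups were scaled between libraries is not given in the sources used here. All 9 markers of resident macrophages had a peak within 1000 bp of a gene end in each library. So did 28 of 34 markers of other cell types in Tle4cKO and 32 of 34 in WT, so that a gene-end peak does not by itself tell cell types apart. Epx and Prg2 of the eosinophil markers had no such peak in either library, and Ccr2, Ly6g, Retnlg and Pecam1 had none in Tle4cKO.

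Of the members, 16 covered an annotated transcript start of a protein-coding gene that has a RefSeq promoter sequence, 1 gene each. Not all of these starts lie at a gene end. The members at Ccr3, Tfpi2 and Apol10b lay inside the gene, more than 1000 bp from either end, and count below as gene-body members. The 250 bases before the start are shown for 6 of the 16, in GRCm38.p6 and in the direction of the gene. Each CG dinucleotide is in capitals. Zfp932 (chr5:109996260-109996509, plus strand), Plin5 (chr17:56117549-56117798, minus) and Pomgnt2 (chr9:121996027-121996276, minus) are shown because their ratios were the lowest of the 16. Tarm1 (chr7:3502625-3502874, minus), Ccr3 (chr9:124021721-124021970, plus) and Phf11a (chr14:59297523-59297772, minus) are shown as genes known from immune cells. In each case the WT peak covered all 250 bases.
Zfp932: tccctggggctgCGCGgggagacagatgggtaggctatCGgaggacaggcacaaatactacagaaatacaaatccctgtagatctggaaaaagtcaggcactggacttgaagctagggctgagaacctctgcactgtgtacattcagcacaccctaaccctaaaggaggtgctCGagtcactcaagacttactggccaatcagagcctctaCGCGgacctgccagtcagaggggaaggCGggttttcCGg
Plin5: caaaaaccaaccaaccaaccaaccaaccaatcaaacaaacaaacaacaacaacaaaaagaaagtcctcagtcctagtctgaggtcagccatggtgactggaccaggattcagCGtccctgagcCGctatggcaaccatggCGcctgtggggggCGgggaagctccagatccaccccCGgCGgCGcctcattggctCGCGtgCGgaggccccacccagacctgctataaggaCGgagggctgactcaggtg
Pomgnt2: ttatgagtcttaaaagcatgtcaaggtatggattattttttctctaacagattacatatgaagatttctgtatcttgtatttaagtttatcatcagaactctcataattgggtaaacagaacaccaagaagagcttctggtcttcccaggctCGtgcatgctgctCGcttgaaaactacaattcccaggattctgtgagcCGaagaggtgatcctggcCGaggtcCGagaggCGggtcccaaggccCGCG
Tarm1: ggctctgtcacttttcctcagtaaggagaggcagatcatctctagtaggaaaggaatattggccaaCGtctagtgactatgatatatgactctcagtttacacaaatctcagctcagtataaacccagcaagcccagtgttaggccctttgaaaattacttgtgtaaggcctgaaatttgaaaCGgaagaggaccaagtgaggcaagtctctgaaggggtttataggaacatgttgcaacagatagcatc
Ccr3: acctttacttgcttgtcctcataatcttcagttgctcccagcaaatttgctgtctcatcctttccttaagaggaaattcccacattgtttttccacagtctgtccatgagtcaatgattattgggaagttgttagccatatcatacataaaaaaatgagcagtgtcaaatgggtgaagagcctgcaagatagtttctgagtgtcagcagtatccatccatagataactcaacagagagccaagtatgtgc
Phf11a: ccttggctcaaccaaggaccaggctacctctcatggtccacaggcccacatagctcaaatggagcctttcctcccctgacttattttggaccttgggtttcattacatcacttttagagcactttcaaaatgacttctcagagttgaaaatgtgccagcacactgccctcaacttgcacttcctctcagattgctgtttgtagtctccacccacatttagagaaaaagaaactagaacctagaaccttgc
The first 3 windows hold 8, 11 and 8 CG dinucleotides, the Tarm1 window holds 2, and the Ccr3 and Phf11a windows hold 0. Over the 16 windows the median was 8 CG dinucleotides, with a range of 0 to 37, at Phf11a and Ccr3 and at Gabbr2. Other pairs of like summed pileup had a median of 11 in their 1070 promoter windows, and all pairs had 17. The median GC content was 55.4% in the 16 windows, 58.8% in the windows of pairs of like pileup and 60.8% in those of all pairs.

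The peak at the start of Zfp932, which encodes a zinc finger protein, was the tallest member in WT. It had the lowest ratio of all pairs with a summed pileup of 100 or more. At chr5:109995914-109997037 its summit pileup was 28 in Tle4cKO and 106 in WT, a ratio of 0.264 with a 95% exact interval of 0.168 to 0.404. Pairs of like summed pileup had a median ratio of 0.704. Among the 26532 pairs with a summed pileup of at least 134, the Zfp932 pair was the 1 pair with a ratio of 0.4 or less. The limit of 134 is the value at Zfp932 itself and was set with the values known. The next lowest ratio among the 26532 was 0.402, at a pair nearest to Tmem267. Its pileup was 41 in Tle4cKO and 102 in WT. Just under the limit, the member near Rps6ka1 had a summed pileup of 130 and a ratio of 0.327. At a summed pileup of 100 or more, 16 pairs were members. The Zfp932 peak was 656 bp wide in Tle4cKO and 1124 bp wide in WT.

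The pairs around Zfp932 did not share the low ratio. Within 100 kb there were 4 other pairs, with ratios of 0.799 to 0.932. The closest of them, 17.4 kb away, was a weak peak with pileups of 13 in Tle4cKO and 14 in WT, and its interval of 0.402 to 2.13 is wide. The next, 61.6 kb away, had 111 in Tle4cKO and 136 in WT. Of the 5 pairs at this locus, 1 thus had a ratio of 0.4 or less.

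**Figure D1:**
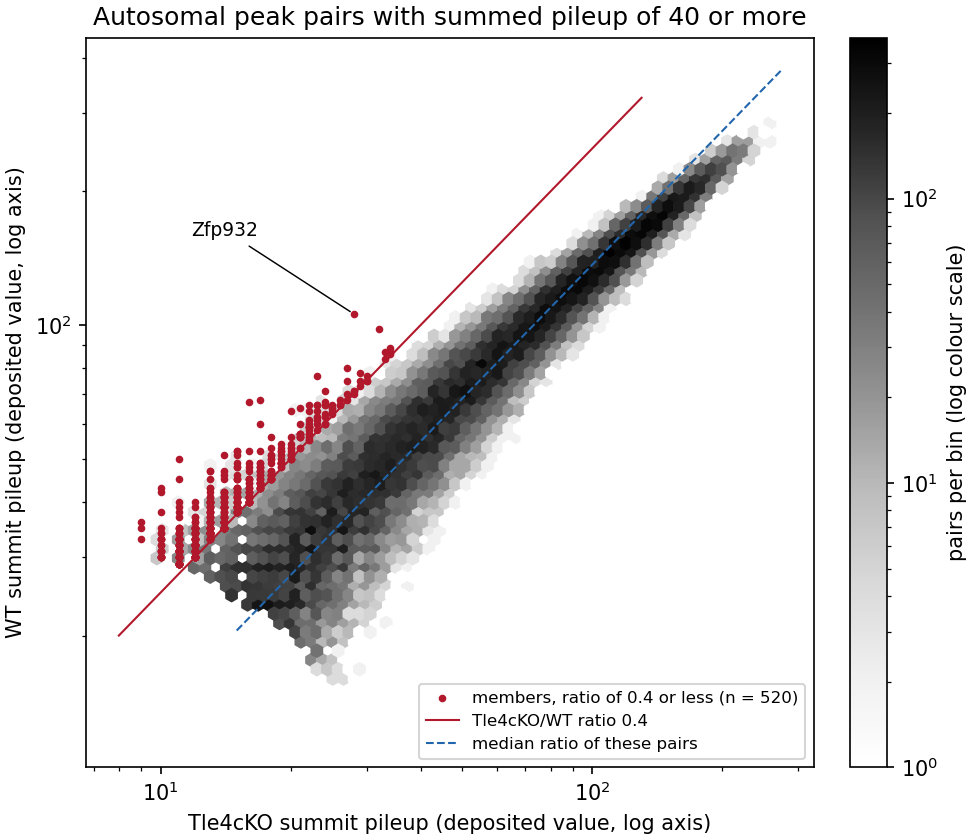
Summit pileup of each autosomal peak pair with a summed pileup of 40 or more, in Tle4cKO (horizontal, log axis) and WT (vertical, log axis). Grey shading counts the 67113 pairs, red points are the 520 members on or above the line of ratio 0.4, and the dashed line marks the median ratio of 0.731; the labelled point is Zfp932, at 28 in Tle4cKO and 106 in WT.

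Most members were peaks of low to moderate height. Their pileup ranged from 9 to 34 in Tle4cKO, with a median of 14, and from 29 to 106 in WT, with a median of 39. The WT value was the higher one in every member, which the rule fixes. Members made up 2.49% of pairs with a summed pileup of 40 to 49, 2.09% of those with 50 to 59, 1.18% of those with 60 to 79 and 0.621% of those with 80 to 99. Among 35281 pairs with a summed pileup of 100 or more, 16 (0.0454%) were members.

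With the pileup treated as a count, 95% intervals were wide in the range in which most members lie. Whether pileups scatter as such counts do was not tested. A pair with a pileup of 21 in Tle4cKO and 32 in WT lies close to the median ratio of pairs with the members' median summed pileup of 53. Its ratio was 0.656, with a 95% exact interval of 0.36 to 1.17, which includes 0.4. Of the 520 members, 266 (51.2%, 95% Wilson interval 46.9% to 55.4%) had an interval that lay wholly below the median ratio of pairs of like pileup, and 254 had not. The same held for 473 of all 67113 pairs (0.705%). Both counts are approximate, because pairs of the same summed pileup could fall in different bins of like pileup. With 14 in Tle4cKO and 39 in WT, the interval ended at 0.676. The member nearest to Cited2 was then counted, against a median of 0.677, and that nearest to Klf13 was not, against 0.667. All 16 members with a summed pileup of 100 or more were among the 266, as were all 25 members of lowest ratio. Height and ratio, by which these members were picked, also set the interval, so both results were fixed in advance. The 51.2% rests on the same values and is a description.

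The threshold cut through a dense part of the distribution. Exactly 0.4 was reached by 59 members, 113 members lay above 0.39, and 77 further pairs lay above 0.4 and below 0.41. A summed pileup of exactly 40 was held by 23 members, and 51 more pairs with a sum of 38 or 39 had a ratio of 0.4 or less. A ratio as far above the median as 0.4 is below it, 1.34 or more, was found in 103 pairs (0.153%). Relative to pairs of like pileup the numbers were closer, with 258 pairs (0.384%) at 0.54 times the local median or lower and 177 pairs (0.264%) at 1.85 times or higher.

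Besides Zfp932, the peaks over transcript starts included those of 2 other zinc finger genes. Zfp941 had pileups of 16 in Tle4cKO and 45 in WT (ratio 0.356, interval 0.188 to 0.641), and Zfp579 had 23 in Tle4cKO and 61 in WT (0.377, 0.223 to 0.618). This grouping was noticed after the values were seen. Over all 520 members the nearest protein-coding gene had a Zfp symbol in 9 (1.73%, 0.913% to 3.26%), against 1.38% of other pairs of like pileup, which lies inside the interval.

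Plin5, a perilipin that coats lipid droplets, had a pileup of 11 in Tle4cKO and 40 in WT at its start (chr17:56117297-56117971), a ratio of 0.275 with an interval of 0.127 to 0.546. Pomgnt2, a glycosyltransferase that builds the sugar chain of alpha-dystroglycan, had 13 in Tle4cKO and 47 in WT (0.277, 0.137 to 0.520). Both intervals ended below the median ratio of pairs of like pileup, 0.677 for Plin5 and 0.676 for Pomgnt2. Kcnn3, a calcium-activated potassium channel, had the second tallest of these peaks in WT, with 30 in Tle4cKO and 77 in WT (0.39, 0.247 to 0.601).

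Among genes known from immune cells, Tarm1, an activating receptor of myeloid cells, and Ccr3, a chemokine receptor best known from eosinophils, had the same values, 17 in Tle4cKO and 43 in WT. Their ratio of 0.395 had an interval of 0.211 to 0.708, which includes the 0.676 of pairs of like pileup. Phf11a, a gene of the Phf11 family on chromosome 14, had 13 in Tle4cKO and 35 in WT (0.371, 0.18 to 0.72). Apol10b, an apolipoprotein L gene, had 15 in Tle4cKO and 41 in WT (0.366, 0.188 to 0.675). Both intervals included the median ratio of pairs of like pileup, 0.679 for Phf11a and 0.667 for Apol10b. Of the 12 pairs at the 4 eosinophil marker genes, Ccr3 held the 1 member. The median ratio of the 12 was 0.633, against 0.731 over the 67113 pairs. These 12 pairs are too few for a share to be read against the 0.775% of all pairs. The sort took cells negative for Siglec-F, a surface protein of eosinophils. The eosinophil granule genes Epx and Prg2 had no gene-end peak in either library, while the other eosinophil markers, Siglecf and Ccr3, had one in both. The part of eosinophils in the Ccr3 value was not tested.

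The other starts covered by members were those of Gabbr2, Tfpi2, Sync, Bbs1, Sbk2 and Aifm3. Their pileups ranged from 12 to 15 in Tle4cKO and from 30 to 38 in WT. Their summed pileups of 42 to 53 lay close to the minimum of 40, and the intervals of all but Gabbr2 included the median ratio of similarly tall pairs.

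**Figure D2:**
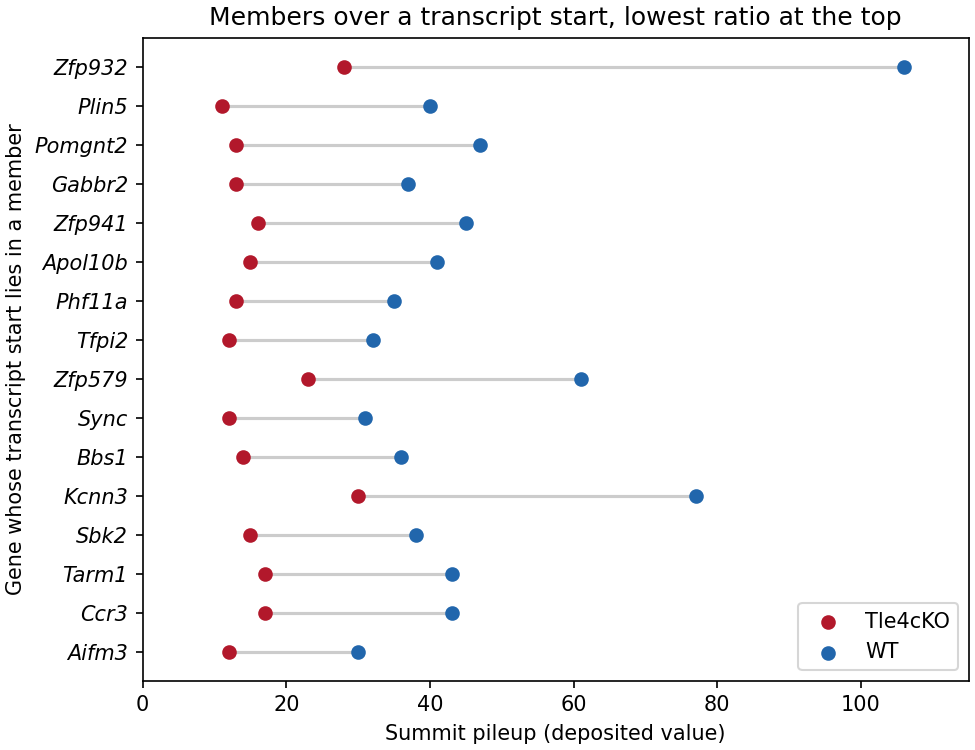
Summit pileup in Tle4cKO (red) and WT (blue) of the 16 members that cover a transcript start, 1 row per gene with the lowest ratio at the top. Zfp932 has the widest gap, 28 in Tle4cKO and 106 in WT, while most other starts lie between 11 and 17 in Tle4cKO and between 30 and 47 in WT.

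The 16 promoter windows were searched on both strands for short motifs of factors that recruit Groucho proteins or open chromatin in macrophages. A match describes letters in a window and is not a site. TGTGGTT, a RUNX motif, was in 0 of the 16 windows and in 3.87% of 16456 promoters, taken as 1 window per gene. CTTTGAA, a TCF/LEF motif, was in 1 window, that of Tarm1, 104 bases before the start, and in 4.16% of promoters. CACGCG, a motif of HES repressors, was read on the other strand in the windows of Plin5 and Zfp941, 55 and 11 bases before the start, and was found in 10.3% of promoters. The E-box CACGTG was in 0 windows and in 6.62% of promoters.

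GAGGAAGT, a motif of the macrophage factor PU.1, was in the window of Phf11a and in 2.27% of promoters. TGANTCA, the motif of AP-1, was in 4 of the 16 windows (Plin5, Tfpi2, Ccr3 and Aifm3), in 6.27% of promoters and in 5.78% of promoters within pairs of like pileup. It reads TGACTCA in Plin5, 11 bases before the start, and TGAGTCA in the printed window of Ccr3, 144 bases before it. The Plin5 window holds both an AP-1 and a HES match, and the 2 do not overlap. With 16 windows, 4 matches are too few to call this motif particular to the members.

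Most members lay away from gene ends. Within 1000 bp of either end of a protein-coding gene lay 38 members (7.31%, 5.37% to 9.87%), inside gene bodies 244 (46.9%, 42.7% to 51.2%) and outside genes 238 (45.8%, 41.5% to 50.1%). Over all 67113 pairs these shares were 20.03%, 44.5% and 35.5%. Other pairs of like summed pileup had 8.55% at gene ends, 50.6% in gene bodies and 40.8% outside genes. The first 2 of these values lie inside the members' intervals, and the share outside genes lies just below the interval.

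Members outside genes had a median distance of 22118 bp to the nearest protein-coding gene, against 20515 bp for pairs of like pileup. More than 100 kb from any such gene lay 42 members (8.08%, 6.03% to 10.7%), against 6.1% of pairs of like pileup, inside the interval. With genes of every type counted, 322 members (61.9%) overlapped an annotated gene.

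**Figure D3:**
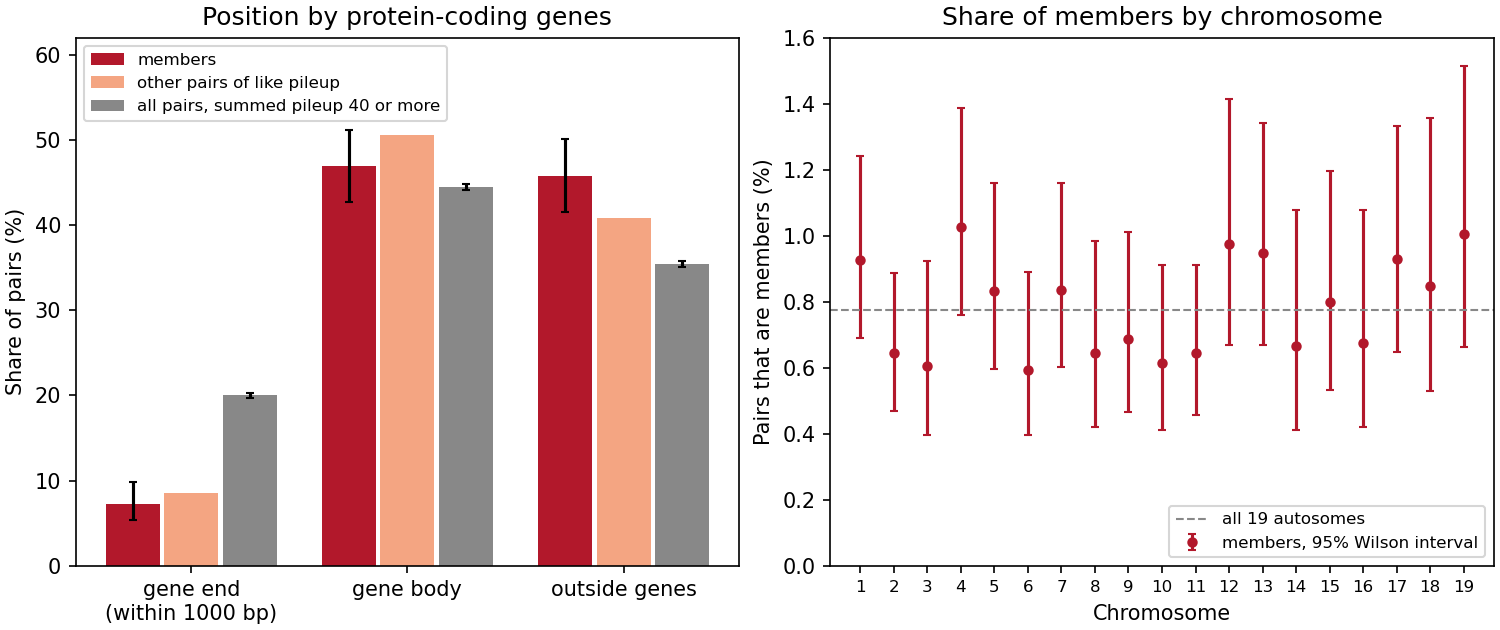
Left, share of pairs (%) at gene ends, in gene bodies and outside genes for members, for other pairs of like summed pileup and for all pairs; bars start at 0 and error bars are 95% Wilson intervals, with none for the weighted shares. Right, share of each chromosome's pairs that are members, with 95% Wilson intervals and the share of all autosomes as a dashed line; the shares run from 0.595% on chromosome 6 to 1.03% on chromosome 4.

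Members were spread over all 19 autosomes. Chromosome 4 had the highest share, 42 of 4088 pairs (1.03%, 0.761% to 1.39%), and chromosome 6 the lowest, 23 of 3868 (0.595%, 0.397% to 0.891%). The interval of every chromosome included the 0.775% of all autosomes. Chromosome 19, which carries Tle4, had 22 members in 2191 pairs (1.004%, 0.664% to 1.52%). Of these, 4 lay within 5 Mb of Tle4, and the nearest, at chr19:11658973-11659797, lay 2788275 bp from the gene.

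Few members were close neighbours. With gaps of at most 100 kb, 458 members stood alone, 25 runs had 2 members and 4 runs had 3. With the ratio taken relative to pairs of like pileup, 0 runs had 3 or more. The nearest other pair within 10 kb existed for 370 members. Its ratio had a median of 0.692 (quartiles 0.594 and 0.781), against 0.714 for the neighbours of pairs of like pileup, and it was itself a member in 7 cases. A peak found in WT alone lay within 10 kb of 48.8% of members (44.6% to 53.1%) and of 46.1% of pairs of like pileup. For a peak found in Tle4cKO alone these shares were 37.1% (33.1% to 41.3%) and 35.4%. Both values of pairs of like pileup lie inside the members' intervals.

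Of the 4 runs of 3 members, the one with the lowest median ratio over all its pairs, 0.563 over 8 pairs, lay on chromosome 14 outside protein-coding genes, with Dleu7 as the nearest one. Its 3 members had pileups of 14, 14 and 10 in Tle4cKO, against 35, 37 and 43 in WT. The last, at chr14:62118394-62119249, had the second lowest ratio of all members, 0.233 (0.104 to 0.47). It lay 156980 bp from Dleu7 and 59 bp from Gm35419, a non-coding gene. The 5 other pairs in the run had ratios of 0.481 to 0.825 with a median of 0.677, and members and other pairs were interspersed.

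The other 3 runs lay among pairs of ordinary ratio. In the run on chromosome 15, inside Nsmce2, which encodes a SUMO ligase of the SMC5/6 complex, 3 members stood among 14 pairs with a median ratio of 0.715. In the run at Sik3, a salt-inducible kinase, and the neighbouring apolipoprotein genes Apoa4 and Apoa5 on chromosome 9, 3 members stood among 12 pairs with a median of 0.687. In the run at Mrpl21 and Tesmin on chromosome 19, 3 members flanked Cpt1a, the enzyme that admits fatty acids to mitochondria. The 9 other pairs of that run had a median ratio of 0.792, including 108 in Tle4cKO and 150 in WT at a gene end of Cpt1a.

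**Figure D4:**
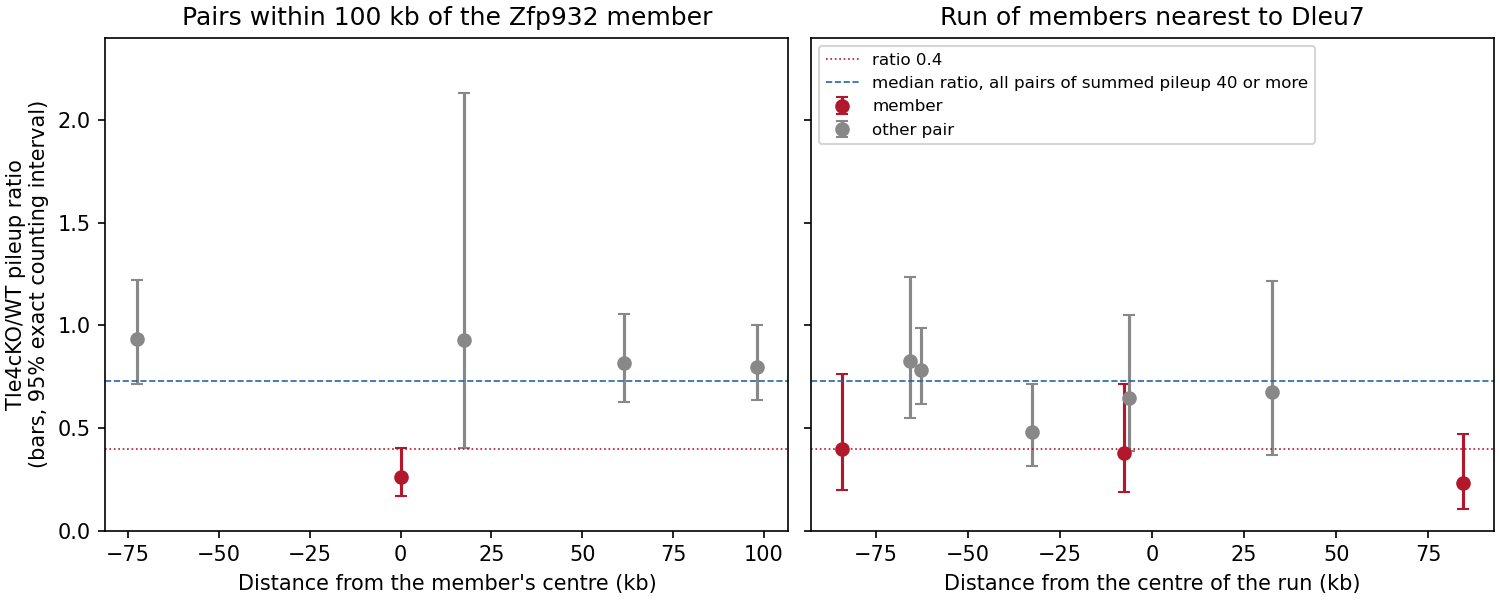
Tle4cKO/WT pileup ratio of each pair, with its 95% exact counting interval, by distance in kb. Left, all pairs within 100 kb of the Zfp932 member, where the member at 0.264 stands below 4 others at 0.799 to 0.932; right, the 3 members and 5 other pairs with a summed pileup of 40 or more in the run nearest to Dleu7.

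Short runs of 2 members with no other pair between them, noticed after the values were seen, lay at Rasgef1c and Tex14 on chromosome 11, Entpd6 on chromosome 2, Mylip on chromosome 13 and Gm4951 on chromosome 18. At Rasgef1c, a guanine nucleotide exchange factor gene, the members had pileups of 15 and 23 in Tle4cKO, against 45 and 77 in WT. Near Tgfbr2, a receptor for TGF-beta that was also noticed after the values were seen, 2 members lay 90375 and 175077 bp from the gene, with 12 and 22 in Tle4cKO, against 35 and 66 in WT. The 5 other pairs between them had a median ratio of 0.541, lower than the 0.731 of all pairs.

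In all, 395 protein-coding genes had a member within the gene or 10 kb on either side, of 15357 genes with any of the 67113 pairs there. Of these 395, 11 had 2 members, and Fggy and Nsmce2 had 3. Fggy encodes a carbohydrate kinase. The 14 pairs at Fggy had a median ratio of 0.662 and the 37 pairs at Nsmce2 one of 0.75. At Camk4, a calcium-dependent kinase gene on chromosome 18, both of its 2 pairs were members.

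The lowest ratio of all lay inside Gfra3, which encodes a receptor for the neurotrophic factor artemin. At chr18:34705960-34706971 the pileup was 11 in Tle4cKO and 50 in WT, a ratio of 0.22 with an interval of 0.103 to 0.428. A member 175779 bp from Slc7a11, the cystine transporter, had 10 in Tle4cKO and 42 in WT (0.238, 0.107 to 0.482). One at chr19:21562348-21563389, outside genes, had 16 in Tle4cKO and 67 in WT (0.239, 0.129 to 0.417). In each of these 3 the WT value was more than 4-fold that of Tle4cKO, and the interval ended below the median of similarly tall pairs.

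Next in order came members near Marveld2, a tight junction gene (11 in Tle4cKO and 45 in WT), and near Olfr520, an odorant receptor gene (17 in Tle4cKO and 68 in WT). Members inside Itga9 and Itga8, both integrin alpha chains, had 9 and 15 in Tle4cKO, against 36 and 52 in WT. Itga8 held a further member with 14 in Tle4cKO and 41 in WT. Inside Zeb1, a zinc finger repressor, the pileups were 13 in Tle4cKO and 47 in WT, and near Lifr, the receptor for leukaemia inhibitory factor, they were 17 in Tle4cKO and 60 in WT. Over the 25 members of lowest ratio, 0.22 to 0.294, pileups ranged from 9 to 28 in Tle4cKO and from 33 to 106 in WT. Of the 25, 4 lay at gene ends, 10 in gene bodies and 11 outside genes.

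One of the 25 had Hes1 as its nearest gene, at a distance of 55237 bp. HES1 is a repressor in the Notch pathway that binds Groucho proteins. This member, at chr16:30123033-30123894, had a pileup of 15 in Tle4cKO and 51 in WT, a ratio of 0.294 with an interval of 0.154 to 0.531. Another, with 9 in Tle4cKO and 35 in WT, lay 18816 bp from Wnt8b, which encodes a Wnt ligand. Both lie beyond the 10 kb used to assign members to genes.

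After Zfp932, the member of highest WT pileup lay near Rps6ka1. The member 9792 bp from Rps6ka1, a kinase downstream of ERK, had 32 in Tle4cKO and 98 in WT (0.327, 0.212 to 0.491). Its paired Tle4cKO peak was 263 bp wide and its WT peak 920 bp wide, and the WT peak overlapped 2 Tle4cKO peaks. Members near Gna12 and Gna13, which encode alpha subunits of the same G protein family, had 33 and 30 in Tle4cKO, against 87 and 75 in WT. Inside Il1r1, the receptor for interleukin-1, the pileup was 29 in Tle4cKO and 78 in WT (0.372, 0.234 to 0.576). Inside Entpd6, a nucleotidase gene, it was 34 in Tle4cKO and 89 in WT, and at a gene end of Rab4a, an endosomal GTPase gene, 27 in Tle4cKO and 80 in WT. Members near Txn2, a mitochondrial thioredoxin gene, and A4galt, a glycosyltransferase gene, had 33 and 30 in Tle4cKO, against 84 and 75 in WT. Members inside Fbxl5, which encodes a ubiquitin ligase subunit that senses iron, and inside Mpp6 had 27 and 29 in Tle4cKO, against 75 and 75 in WT. The 15 members of highest WT pileup ranged from 23 to 34 in Tle4cKO and from 75 to 106 in WT.

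Members were also counted at 22 lists of genes for macrophage functions and other cell types, holding 268 genes, of which 262 are protein-coding genes on autosomes. At 11 of these genes a member lay within the gene or 10 kb on either side, and 13 lists had none. The 122 pairs at resident macrophage markers had a median ratio of 0.745 and a lowest ratio of 0.458. The 127 pairs at MHC class II and other antigen presentation genes had a median of 0.743 and a lowest of 0.42. The lowest ratio was 0.553 at the TLE family, 0.654 at the AP-1 family, 0.434 at IL-10 and anti-inflammatory genes, 0.424 at pro-inflammatory genes and 0.49 at clock genes. These 7 lists held 0 members, but each has too few pairs for its share to be read against the 0.775% of all pairs.

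Among genes of the factors that recruit TLE4, Runx1 had 1 member among 36 pairs, inside the gene at chr16:92683645-92684423, with 10 in Tle4cKO and 32 in WT (0.312, 0.137 to 0.652). The median ratio of the 36 pairs was 0.771, above the 0.731 of all pairs. In the Notch and HES list, Rbpj, the DNA-binding factor of the pathway, had 16 in Tle4cKO and 42 in WT at 1 of 16 pairs, and the member 1081 bp from Dll4, a Notch ligand, had 22 in Tle4cKO and 59 in WT. In the Wnt and TCF list, a member 8581 bp from Fzd7, a Wnt receptor, had 14 in Tle4cKO and 42 in WT. The medians of these lists were 0.746 over 86 pairs and 0.675 over 62 pairs. Counts of members at these genes and lists are too small to be read against the 0.775% of all pairs. The interval at Rbpj (0.2 to 0.692) included the median ratio of pairs of like pileup, 0.676, while those at Runx1, Dll4 and Fzd7 ended below theirs.

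Matrix metalloproteinases and their inhibitors had 2 members among 64 pairs, both on chromosome 9, a count too small to be read against the 0.775% of all pairs. At a gene end of Mmp13, a collagenase, the pileup was 13 in Tle4cKO and 36 in WT (0.361, 0.176 to 0.697), and the 5 pairs at Mmp13 had a median ratio of 0.412. The member 3648 bp from Mmp8, the neutrophil collagenase, had 22 in Tle4cKO and 59 in WT (0.373, 0.218 to 0.618), while the 7 pairs there had a median of 0.742. Inside Oas1a, an antiviral enzyme gene of the interferon response, the pileup was 11 in Tle4cKO and 34 in WT, and inside Msr1, a scavenger receptor, 16 in Tle4cKO and 41 in WT. The interval at Msr1 (0.204 to 0.711) included the median ratio of pairs of like pileup, 0.676, and that at Mmp13 included its median of 0.69. Those at Mmp8 and Oas1a ended below theirs.

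Of the lists for other cell types, those of monocytes, neutrophils, T cells, B and plasma cells and stroma had 0 members. Flt3, a dendritic cell receptor, had 1 among the 36 pairs of its list, with 13 in Tle4cKO and 35 in WT. Cdh1, an adhesion gene of epithelium, had 1 among 14, with 11 in Tle4cKO and 30 in WT. Both intervals, 0.18 to 0.72 at Flt3 and 0.166 to 0.753 at Cdh1, included the median ratio of pairs of like pileup. The median ratio was 0.72 at dendritic cell genes and 0.689 at epithelium genes. Here too the pairs are too few to read a share, and the part of other cell types in single members was not tested.

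**Figure D5:**
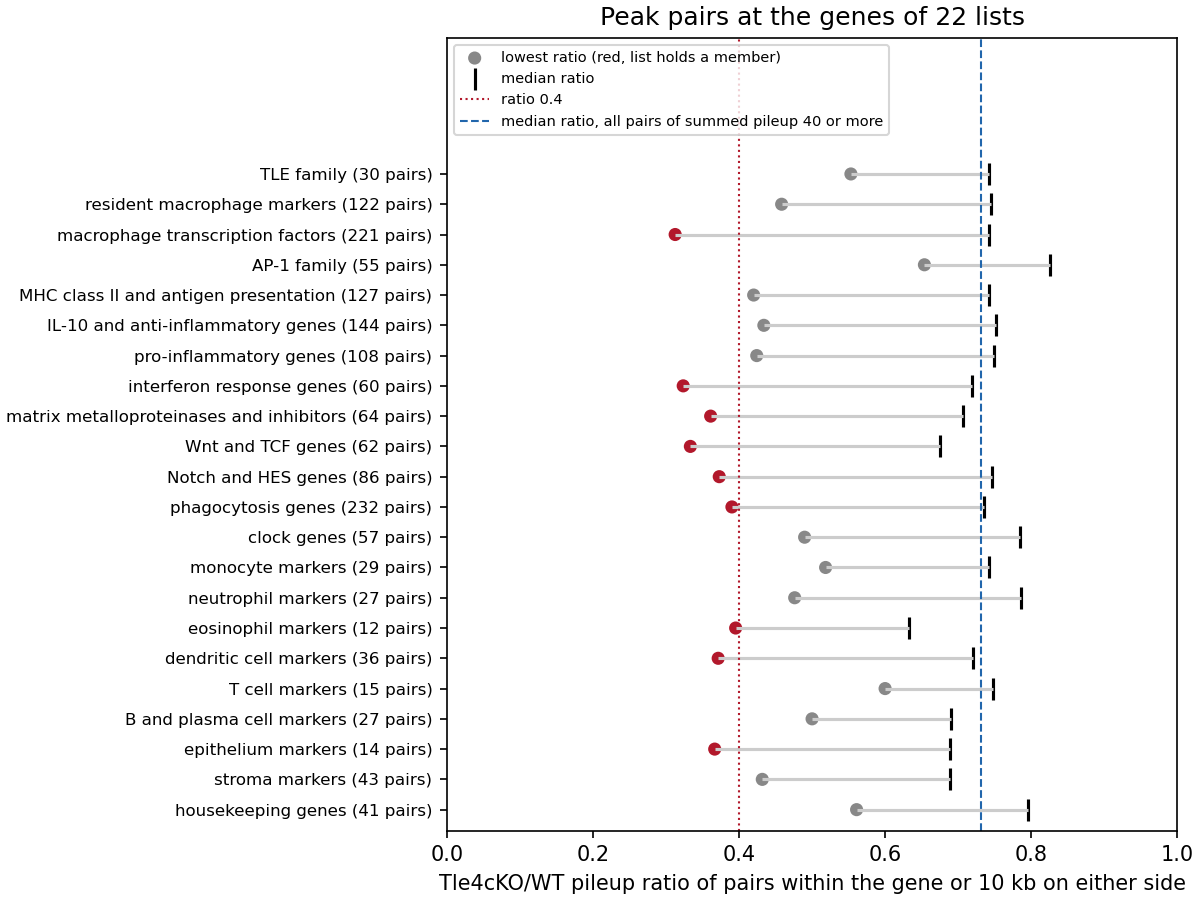
Tle4cKO/WT pileup ratio of the pairs at the genes of 22 lists, with the lowest ratio as a point, red where the list holds a member, and the median as a black tick. The dotted line marks 0.4 and the dashed line the median of 0.731; 9 lists reach below 0.4.

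Member peaks were narrower as well as lower in Tle4cKO. Their median width was 574.5 bp in Tle4cKO and 837.5 bp in WT, and 462 of 520 (88.8%, 85.9% to 91.3%) were narrower in Tle4cKO. Among other pairs of like pileup, median widths were 661 bp in Tle4cKO and 741 bp in WT, and 70.1% were narrower in Tle4cKO. In 62 members (11.9%, 9.41% to 15.0%) the WT peak overlapped 2 or 3 Tle4cKO peaks, against 7.06% of other pairs. Summits of the paired peaks lay a median of 73 bp apart, against 55 bp in pairs of like pileup. Width, splitting and summit come from the same peaks as the ratio that chose the members, so these differences are a description.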

How the data were processed

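The authors deposited 1 ATAC-seq peak list per library, each with the position, width, summit and summit pileup of every peak. Per the file headers, the pileup column gives signal at the summit; its deposited values are whole numbers of at least 7. The submitters' processing notes list MACS2 2.1.1 among the tools, with Bowtie2 2.2.5, cutadapt 1.14, HOMER 4.7.2, edgeR 3.28.1 and featureCounts 1.5.0, and mm10 as the build, and assign no roles to them. For read totals, calling thresholds, transposase offset, duplicate handling and scaling of one library to the other, the answer is not given in the sources used here.

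Overlaps, pairs and ratios were computed with Python 3.11.15, numpy 2.4.6, pandas 2.3.3 and scipy 1.17.1. Ties in pileup went to the larger overlap. Other pairs of like pileup are all non-member pairs, weighted so that each summed pileup counts as often as among the members. The median ratio of pairs of like pileup was instead taken without weights in 50 bins of summed pileup. These bins held all 92335 pairs, including the members, other chromosomes and summed pileups below 40. Gene ends, transcript starts and sequences came from RefSeq tables of GRCm38.p6, the assembly behind mm10. Without exons or a full genome, exonic or intronic position and motifs in the peaks themselves were not analysed here. Ratios have exact Clopper-Pearson and shares Wilson intervals at 95%, which treat the pileup as a count of fragments and cover counting error only. With 1 library per genotype no test between genotypes was made. The pairing step was tested on simulated data. Members, gene lists and motifs were chosen with earlier results of these data known.

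Genes named are those nearest to the 25 members of lowest ratio and the 15 of highest WT pileup, those with 3 or more members, those in runs of 3 or more members, and listed genes with a member. Some genes that the rule names are counted and not described one by one. The 16 genes with a transcript start in a member were all named, a set added with the values known. Groupings outside this rule are marked as noticed after the values were seen.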

Additional observations from a re-analysis of the deposited data

Results flagged for a closer look

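Chromosome X was outside the rule for the members. At the same thresholds, 45 of its 1342 pairs (3.35%, 95% Wilson interval 2.52% to 4.46%) had a ratio of 0.4 or less, against 0.775% on the autosomes. The median ratio of the X pairs was 0.69. Of the 45, 18 formed 1 run with gaps of at most 1 Mb, from 166899174 to 167357860. It is given here because it lies in data that the report does not otherwise use, and its cause was not tested.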

How the results depend on the processing

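The number of members depended on the thresholds. It was 176 with a summed pileup of 60 or more, 150 with a ratio of 0.35 or less, 1384 with 0.45 or less and 258 with the ratio taken relative to pairs of like pileup, and it stayed within 1.5 times of 520 under the other alternatives. The number of runs of 3 or more members was 2 with peaks that overlap exactly 1 other peak, 35 at a ratio of 0.45 or less, 1 with gaps of 50 kb and 10 with gaps of 200 kb. It was 0 with a summed pileup of 60 or more, at a ratio of 0.35 or less, with relative ratios and with counting intervals below pairs of like pileup. The last alternative was chosen after seeing the data; it held 473 pairs, 266 of them members, with 11.6% at gene ends and a median WT width of 967 bp. The share at gene ends was 12.5% within 2500 bp and 13.3% with all annotated genes. The median WT width was 873.5 bp with pairs by largest overlap, 932 bp at a summed pileup of 60 or more and 799 bp at 30 or more. Thresholds and windows change these values by their construction; the cause of the other shifts was not tested. The share in gene bodies stayed within its interval under all 9 alternatives tried for it. No paired analysis was possible because there is 1 library per genotype. Read totals are unknown, and at the members' pileups an interval for a typical pair reaches below 0.4.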
